A study of Mus musculus with 9 samples.

Results

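The comparison set full-length CCAT against untransfected cells in mouse Neuro2A cells, a neuroblastoma line grown in culture, on the 3 arrays titled as full-length replicates of the A set, of 9 arrays in the series. CCAT is the C-terminal end of the calcium channel CaV1.2 acting as a transcription factor, and the arrays were made to find the genes under its control. In the full-length (FL) samples, cells were transfected with Lipofectamine 2000 and a PA1 plasmid carrying the last 503 amino acids of CaV1.2, and GFP-positive cells were taken by fluorescence-activated cell sorting 24 hours later. The control was Neuro2A cells that were not transfected and went through the sorter in the same way. The other 6 arrays, used here only beside the FL values, held the truncated construct of the last 280 amino acids, which lacks the activation domain (DTA), against untransfected cells, and FL against cells with the empty PA1 plasmid. FL cells differed from their control by the construct, the plasmid, GFP and the transfection, and by the design text PA1 without an insert already raised some genes, so these cannot be told apart in the comparison. One cell line was used, and the labels do not say that the 3 replicates came from separate cultures, so that p-values cover the variation among these arrays and no more, and it may be technical.

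Foreign nucleic acid in a cell is bound by sensors such as RIG-I, which switch on type I interferon and, through STAT and IRF factors, a large set of antiviral genes. Other inducible programmes measured here are the response to low oxygen, in which HIF factors raise glucose uptake and glycolysis, and the response to low sterol, in which SREBP factors raise the enzymes of cholesterol synthesis. Calcium channel fragments of the CCAT kind have been described in neurons as nuclear proteins that change transcription of genes for gap junction proteins, channels and guidance molecules.

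Each array gave the ratio of the Cy3 channel (FL) to the Cy5 channel (untransfected), or its inverse, on a log scale, shown here as log2, and 1 unit is a 2-fold difference. The labels do not state the order of the ratio. Positive values are read as higher in FL cells. This is likely, since the design text has the plasmid raising genes and interferon genes had the strongest positive ratios. The direction of the interferon genes was thus used for this reading and is not a separate result. An inverse order would turn every direction given here. FL carried Cy3 on every array, so a dye effect of single genes is not separated from these ratios. The files hold ratios only: whether a probe was above background is unknown, the labelled cell type could not be checked by level, and in RNA of many cells a higher ratio does not tell more expressing cells from more RNA per cell. The 22393 features gave 16496 named genes. The median log2 ratio was 0.0, -0.002 and 0.0 on the arrays of replicates 1, 2 and 3, and values below follow that order. Over named genes, which are not independent, Pearson's r between arrays was 0.899 for replicates 1 and 2, 0.840 for 1 and 3, and 0.852 for 2 and 3.

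Of the 16496 genes, 9794 (59.4%) passed the limma test against 0 at an adjusted p of 0.05, with 4921 (29.8%) higher and 4873 (29.5%) lower in FL than in untransfected cells. Most of these differences were small, with a median size of 0.31 on the log2 scale. Genes that passed and were at least 1.5-fold higher numbered 835 (5.06%), against 532 (3.23%) at least 1.5-fold lower. At 2-fold the split was 191 higher (1.16%) and 71 lower (0.43%), so the large differences leaned upward while the small ones were even. The higher genes were also measured more evenly: the median SD between arrays was 0.093 for the 191 and 0.29 for the 71, and all 3 arrays were past 2-fold for 128 of the 191 and for 25 of the 71. Rose and fell are used below only of genes that passed this test. List counts are to be read beside the 29.8% and 29.5% of all genes given above. The number of calls depends on single arrays: 5879 genes passed without replicate 2, and 3148 genes were lower without replicate 1. In the 2-fold sets 85 of the 191 higher and 12 of the 71 lower genes belonged to a gene list described below. These lists were chosen with earlier results of these data known. The share of all named genes in a list was not counted, so these numbers are descriptions only.

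**Figure D1:**
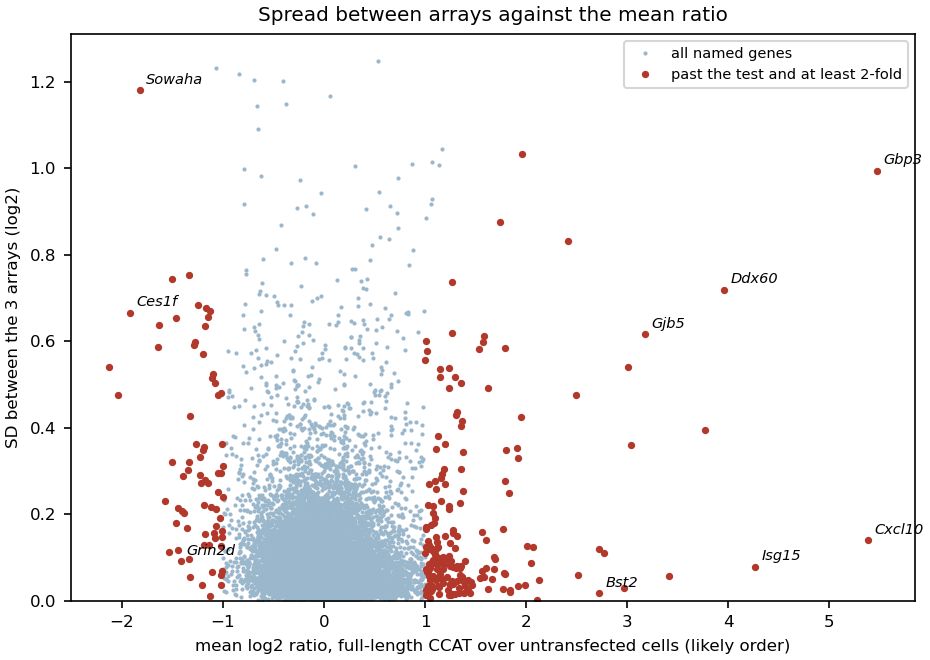
Mean log2 ratio of FL over untransfected cells against the SD between the 3 arrays for each named gene (small points) and for the genes that passed the test with at least a 2-fold difference (red points). Cxcl10, Isg15 and Bst2 combine a high ratio with a small SD, while Gbp3, Ddx60 and Gjb5 on the high side and Sowaha on the low side have an SD above 0.6.

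The highest ratios belonged mainly to interferon-stimulated genes. Gbp3, an interferon-induced guanylate-binding GTPase, had log2 ratios of 5.05, 6.61 and 4.76, a mean 44.4-fold increase (adjusted p = 0.00241), and replicate 2 was the highest. Cxcl10, a chemokine that draws T cells, had 5.32, 5.54 and 5.29 and was 41.7-fold higher (SD 0.14, n = 3, limma adjusted p = 0.000722). Isg15, a ubiquitin-like protein attached to other proteins during the interferon response, had 4.19, 4.34 and 4.28, close on all 3 arrays. Next came the helicase-like antiviral gene Ddx60 with 4.48, 4.26 and 3.14, lowest on replicate 3, and Ifit1, which binds viral RNA lacking host-type caps, with 3.32, 4.01 and 4.0, lowest on replicate 1. Mx2, a dynamin-like antiviral GTPase, had 3.39, 3.48 and 3.37. Outside the interferon set, Gjb5, a connexin, had 3.28, 3.74 and 2.52, and Pdk1, the kinase that holds back pyruvate entry into the mitochondrion, had 3.45, 2.88 and 2.79. Fmn1, a formin that builds actin filaments, had 2.39, 3.32 and 3.32, with replicate 1 lowest. The remaining 6 of the 15 highest were Irgm1 (mean 2.97), Bnip3 (2.77), Parp9 (2.72), Bst2 (2.72), Ndrg1 (2.52) and the chemokine Ccl5 (2.50).

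The lowest ratios were smaller in size and spread more. Necab1, a neuronal calcium-binding protein, had -1.74, -2.74 and -1.89, a mean 4.36-fold decrease (SD 0.54, adjusted p = 0.00433), with replicate 2 the lowest. Styk1, a kinase-like membrane protein, had -1.92, -2.56 and -1.63, and Ces1f, a carboxylesterase, -1.21, -2.53 and -2.02. Sowaha had -2.33, -2.66 and -0.47, and its mean rested on replicates 1 and 2. Artn, a ligand of the GDNF family that acts on sensory and sympathetic neurons, was even between arrays at -1.51, -1.43 and -1.65 (SD 0.11, adjusted p = 0.00139), and so was Grin2d, an NMDA receptor subunit, at -1.32, -1.45 and -1.49 (adjusted p = 0.00139). Cts3, a placental cathepsin, and Tbxas1, thromboxane synthase, had means of -1.50 and -1.47, with replicate 1 the least negative for both at -0.64 and -0.71. The others of the 15 lowest were Fam81a (-1.64), the silent potassium channel subunit Kcnv1 (-1.63), the orphan receptor Gpr12 (-1.57), Bank1 (-1.51), a B-cell scaffold, the matrix protein Postn (-1.46), Ttc3 (-1.45) and Chil1 (-1.44). Sowaha did not pass without replicate 1 or 2, Kcnv1 did not pass without replicate 2, and Cts3 and Tbxas1 did not pass without replicate 2 or 3 (adjusted p 0.0525 to 0.158).

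**Figure D2:**
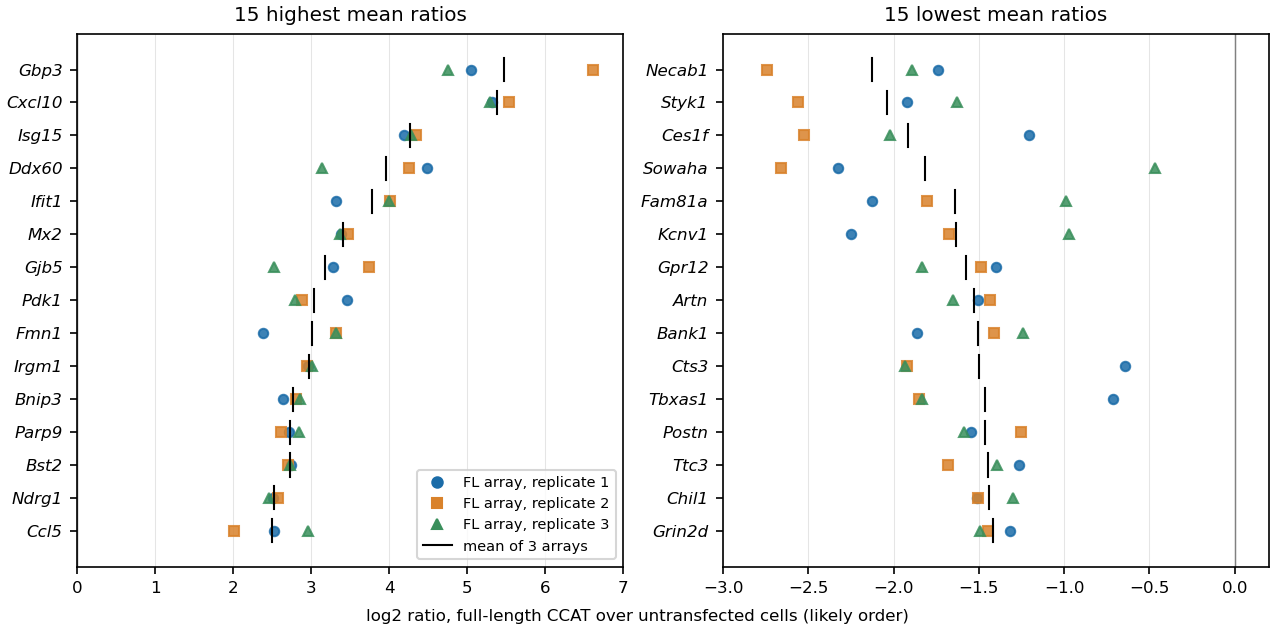
Log2 ratio of FL over untransfected cells on each of the 3 arrays for the 15 highest and the 15 lowest named genes, with the mean as a black line. The highest genes lie above 2 on all 3 arrays, whereas Sowaha, Cts3 and Tbxas1 each have 1 array nearer 0 than -0.8.

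Interferon effectors rose strongly but not as a whole list. Of 35 measured antiviral effector genes 22 rose, 17 of them at least 1.5-fold, and 3 fell, where 29.8% and 29.5% of all genes did and 5.06% were at least 1.5-fold higher. The list had a median log2 ratio of 0.75 against -0.002 over all named genes. Bst2, or tetherin, which holds budding virus at the cell surface, had 2.74, 2.70 and 2.73, the smallest SD among the 15 highest (SD 0.018, adjusted p = 0.000547). The ADP-ribosyltransferase Parp9 had 2.72, 2.61 and 2.85. Oligoadenylate synthetases, which answer double-stranded RNA, rose with Oas2 (1.53), Oasl1 (1.31), Oasl2 (1.30) and Oas1c (1.27), while Oas3 fell (-0.45). Oas1g had 1.49, 1.68 and 0.0, with a deposited ratio of exactly 0 on replicate 3, and did not pass (adjusted p = 0.0826). The cap-binding and RNA-binding proteins Ifit2 (1.02) and Ifit3 (0.87), the membrane protein Ifitm3 (0.88), the zinc finger antiviral protein Zc3hav1 (0.81) and the kinase PKR, Eif2ak2 (0.75), rose less. Rsad2 (viperin) rose by only 0.29. Mx1 (mean -0.05) did not pass, and Pml (-0.31) and Slfn2 (-0.24) fell. Ifit3 did not pass without replicate 1, Rsad2 did not pass without replicate 1 or 2, and Oas2 and Oasl2 did not pass without replicate 2 (adjusted p 0.0514 to 0.131).

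Of the 5 genes of ISG15 conjugation, 3 rose: Isg15 itself (mean 4.27), the deconjugase Usp18 (1.68, 2.25 and 3.32, highest on replicate 3) and the conjugating enzyme Ube2l6 (1.49, 1.60 and 1.53). The activating enzyme Uba7 had 0.23 and did not pass, and the ligase Herc6 fell (-0.42). Among 13 interferon-inducible GTPases 8 rose and 1 fell, Tgtp1 (-0.33), with 5, 5 and 8 rising when replicate 1, 2 or 3 was left out. Irgm1, which acts in autophagy of intracellular microbes, had 2.96, 2.95 and 3.0, Irgm2 had 2.11, 2.10 and 2.11 and the very large GTPase Gvin1 had 2.04, 2.43 and 0.76, lowest on replicate 3. Igtp (Irgm3) rose by 1.36. Guanylate-binding relatives of Gbp3 stayed far below it, with Gbp5 at 0.36, Gbp7 at 0.35 and Gbp2 at 0.15, while Gbp4 (-0.30, -0.13 and -0.69) did not pass. Gbp genes are close copies of each other, and probes may share their RNA. Gbp7 did not pass without replicate 1, Gbp2, Gvin1 and Tgtp1 did not pass without replicate 1 or 2, and Gbp5 did not pass without replicate 2 (adjusted p 0.0548 to 0.138).

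Genes upstream of the effectors went both ways within each list, as did all genes (29.8% rose and 29.5% fell). Among 13 interferons and receptors 3 rose and 4 fell, Ifna9 (-0.57), Ifng (-0.45), Ifnab (-0.24) and Ifna5 (-0.14), with 2, 1 and 3 rising and 2, 1 and 4 falling when replicate 1, 2 or 3 was left out. Ifnb1, the first interferon made after sensing, had 0.0, 0.0 and 0.47 and did not pass (adjusted p = 0.306). The interferon gamma receptor chain Ifngr1 rose by 0.67 and the type I receptor chain Ifnar2 by 0.22. Of 17 sensing genes 6 rose and 3 fell. Ddx58 (RIG-I) had 1.24, 1.50 and 3.14 with replicate 3 far above the others, its partner ligase Trim25 had 1.27, 1.42 and 1.39, and Ifih1 (MDA5) had 0.73, 1.12 and 1.94. The nucleic acid sensor Zbp1 rose by 1.08, and the endosomal sensor Tlr9 (-0.27) and the adaptors Ticam1 (-0.37) and Sting1 (-0.51) fell. Without replicates 1, 2 or 3 in turn, 3, 2 and 6 sensing genes rose. Of 15 signalling factors 9 rose and 3 fell, Irf3 (-0.83), Socs3 (-0.42) and Tyk2 (-0.36), where 29.8% and 29.5% of all genes did. Irf7 had 1.54, 2.12 and 2.10, and of Stat2 and Irf9, which work together in the interferon-activated complex ISGF3, Stat2 had 1.85, 1.85 and 1.81, close on all 3 arrays, and Irf9 1.91, 2.08 and 1.41, lowest on replicate 3. Irf1 rose by 0.57. Irf3, the factor first activated by sensing, had -0.69, -0.85 and -0.95 (adjusted p = 0.00229). Ddx58, Ifna5, Ifnab and Ifnar2 did not pass without replicate 1 or 2, and Ifih1 and Ifng did not pass without replicate 2 (adjusted p 0.0502 to 0.126).

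Genes of antigen presentation by MHC class I rose almost throughout: 16 of 18 genes rose, 13 of them at least 1.5-fold, and 1 fell, H2-T24 (-0.24), with a median of 0.77. The light chain B2m had 1.38, 1.43 and 1.47, the class I gene H2-K1 1.14, 1.18 and 1.22, and the peptide-loading factor Tapbp 1.25, 1.20 and 1.43. The immunoproteasome subunits Psmb8 (1.38), Psmb10 (0.81) and Psmb9 (0.69) rose too. Class I genes such as H2-Q7 (1.37) and H2-T23 (1.34) resemble each other in sequence, so their values may not be separate. Of 23 chemokines 11 rose and 5 fell, but apart from Cxcl10 and Ccl5 (2.53, 2.0 and 2.95) none of the members named by rule exceeded a mean of 1 (Ccl25 0.96, Xcl1 0.91, Cx3cl1 0.83). The value of Cx3cl1 averages features that disagreed, with means of 0.057 and 1.60. Of 16 other cytokines 2 rose, Csf1 (0.46) and Il6 (0.40), and 5 fell, among them Tnf (-0.50) and Il1b (-0.49). NF-kappaB genes rose in 11 of 17, with the inhibitors Nfkbia at 0.57 and Nfkbiz at 0.70. These chemokine and NF-kappaB counts depend on single arrays, with 8, 7 and 10 chemokines and 7, 6 and 11 NF-kappaB genes rising and 5, 3 and 5 and 1, 1 and 1 falling without replicate 1, 2 or 3, where 5 and 2 fell with all arrays. H2-T24 did not pass without replicate 1, and Xcl1 did not pass without replicate 1 or 2 (adjusted p 0.0549 to 0.0835).

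The starts of 6 of these genes are shown because their ratios are among the highest and the window holds the motif bound by interferon-activated factors, 2 copies of GAAA with 2 free bases between them. The window is the 250 bases before the RefSeq gene start in GRCm38.p6, printed 5′ to 3′ on the strand of the gene, with matches to the motif on either strand in capitals (adjoining matches overlap). It held a match in 48.8% of 41 measured effector, ISG15 and GTPase genes with a promoter entry, against 3.37% of 13228 measured genes and 3.46% of 27025 RefSeq genes. The window of Gbp3 lies at chr3:142559794-142560043 on the plus strand, Cxcl10 at chr5:92348890-92349139 on the minus strand, Isg15 at chr4:156200819-156201068 on the minus strand, Ddx60 at chr8:61927837-61928086 on the plus strand, Ifit1 at chr19:34640639-34640888 on the plus strand and Bst2 at chr8:71537473-71537722 on the minus strand. Where RefSeq gave a gene 2 starts (Gbp3 here and Ldha below), any of them counted in these shares and the window with more matches is printed. A match is a description of letters, and binding was not measured. 
Gbp3: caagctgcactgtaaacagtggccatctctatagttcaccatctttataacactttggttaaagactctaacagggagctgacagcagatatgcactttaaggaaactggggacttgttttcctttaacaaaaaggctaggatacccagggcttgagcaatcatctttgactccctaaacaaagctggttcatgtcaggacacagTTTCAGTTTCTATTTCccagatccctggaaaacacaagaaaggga
Cxcl10: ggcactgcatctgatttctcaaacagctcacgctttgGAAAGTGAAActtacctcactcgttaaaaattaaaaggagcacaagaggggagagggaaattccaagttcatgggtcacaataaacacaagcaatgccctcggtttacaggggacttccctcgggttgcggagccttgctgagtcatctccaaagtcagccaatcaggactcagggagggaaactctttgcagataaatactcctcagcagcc
Isg15: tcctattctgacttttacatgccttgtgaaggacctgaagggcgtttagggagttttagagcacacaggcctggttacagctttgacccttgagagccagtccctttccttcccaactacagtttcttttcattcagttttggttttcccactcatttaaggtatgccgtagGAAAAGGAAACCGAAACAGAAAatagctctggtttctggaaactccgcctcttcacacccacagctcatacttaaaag
Ddx60: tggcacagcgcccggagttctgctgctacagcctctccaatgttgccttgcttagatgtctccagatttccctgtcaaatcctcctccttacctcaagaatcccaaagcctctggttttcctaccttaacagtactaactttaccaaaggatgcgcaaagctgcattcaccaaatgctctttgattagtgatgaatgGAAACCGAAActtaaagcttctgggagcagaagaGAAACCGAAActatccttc
Ifit1: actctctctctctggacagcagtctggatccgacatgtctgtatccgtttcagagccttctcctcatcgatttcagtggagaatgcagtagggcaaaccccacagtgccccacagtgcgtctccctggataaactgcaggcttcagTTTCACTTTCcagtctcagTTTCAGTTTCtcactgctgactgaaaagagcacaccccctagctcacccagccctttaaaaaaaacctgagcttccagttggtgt
Bst2: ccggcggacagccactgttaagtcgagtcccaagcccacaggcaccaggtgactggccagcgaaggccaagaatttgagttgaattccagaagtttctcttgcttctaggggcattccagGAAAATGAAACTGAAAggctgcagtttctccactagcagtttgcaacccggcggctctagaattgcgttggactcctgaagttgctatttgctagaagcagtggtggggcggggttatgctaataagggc

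Genes of glucose use formed the second large group. Of 24 measured genes of glycolysis and pyruvate use 16 rose, 15 at least 1.5-fold and 9 at least 2-fold, and 1 fell, with a median of 0.87 (0.91, 0.80 and 0.93 on the 3 arrays). The main glucose importer Slc2a1 had 1.90, 2.0 and 2.15, a 4.04-fold increase (adjusted p = 0.00137). Along the pathway, triosephosphate isomerase Tpi1 had 1.89, 1.92 and 1.96, phosphoglycerate kinase Pgk1 1.52, 1.62 and 1.62 and the neuronal enolase Eno2 1.50, 1.64 and 1.56. These 3 enzymes differed by less than 0.2 between arrays. The lactate and proton exporter Slc16a3 had 1.66, 1.59 and 1.79. Of the members chosen for mention after their values were seen, Hk2 had 0.98, Pfkl 1.04, Pgam1 1.0, Pkm 1.30 and Ldha 1.40, all of which rose. Within families the members differed: Pdk1 rose by 3.04 while Pdk4 fell (-0.39), and Ldhb (mean -0.15) and Aldoc (-0.05) stood near 0 beside Ldha and Aldoa (0.86). Pdk4 did not pass without replicate 2 (adjusted p 0.0651).

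Other genes known as HIF targets mostly rose, 15 of 23 rising, 11 at least 1.5-fold, and 1 falling, Epo (-0.51). Bnip3, a mitophagy receptor, had 2.64, 2.81 and 2.86 (adjusted p = 0.00114), and Ndrg1, a stress-induced gene often used as a hypoxia marker, had 2.51, 2.58 and 2.46. The transcriptional repressor Bhlhe40 had 2.14, 2.08 and 2.17. The histone demethylase Kdm3a (1.34) and the collagen-modifying enzymes P4ha1 (1.34) and Plod2 (1.24) followed. Egln3, an oxygen-sensing prolyl hydroxylase, had 1.31, 1.39 and 0.69, lowest on replicate 3.

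The starts of 4 genes of these lists are shown with the core of the hypoxia response element, ACGTG on either strand, in capitals, in the same window of 250 bases before the RefSeq start (GRCm38.p6). This short motif was in the window of 56.1% of 41 genes of the 2 lists and of 22.01% of 13228 measured genes. The window of Bnip3 lies at chr7:138909507-138909756 on the minus strand, Slc2a1 at chr4:119108495-119108744 on the plus strand, Pgk1 at chrX:106186850-106187099 on the plus strand and Ldha at chr7:46845554-46845803 on the plus strand. They were chosen after their values were seen, as genes with a high ratio and a match. 
Bnip3: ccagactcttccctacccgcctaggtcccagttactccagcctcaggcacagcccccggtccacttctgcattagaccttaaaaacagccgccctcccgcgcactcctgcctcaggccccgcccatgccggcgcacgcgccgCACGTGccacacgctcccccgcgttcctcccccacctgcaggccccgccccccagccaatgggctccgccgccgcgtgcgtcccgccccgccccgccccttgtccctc
Slc2a1: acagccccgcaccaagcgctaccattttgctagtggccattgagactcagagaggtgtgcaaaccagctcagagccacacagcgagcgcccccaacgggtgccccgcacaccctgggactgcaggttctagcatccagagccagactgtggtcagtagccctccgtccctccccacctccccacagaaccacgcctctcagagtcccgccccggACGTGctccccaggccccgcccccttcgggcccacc
Pgk1: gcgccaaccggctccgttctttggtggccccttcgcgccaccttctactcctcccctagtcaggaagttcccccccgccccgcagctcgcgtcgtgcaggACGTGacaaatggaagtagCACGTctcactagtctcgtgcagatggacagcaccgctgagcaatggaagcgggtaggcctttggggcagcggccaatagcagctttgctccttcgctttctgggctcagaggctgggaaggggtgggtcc
Ldha: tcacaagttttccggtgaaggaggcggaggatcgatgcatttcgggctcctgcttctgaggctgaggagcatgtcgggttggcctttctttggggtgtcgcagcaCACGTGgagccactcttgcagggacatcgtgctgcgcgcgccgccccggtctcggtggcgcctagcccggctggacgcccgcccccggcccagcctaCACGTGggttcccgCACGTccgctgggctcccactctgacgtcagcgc

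Enzymes of cholesterol synthesis rose nearly without exception, 16 of 17 measured, with 0 falling and 12 at least 1.5-fold higher. The median was 0.86, at 0.83, 0.85 and 0.95 on the 3 arrays. Hmgcs1, at the first committed steps, had 1.75, 1.76 and 1.87, a 3.46-fold increase (SD 0.063, adjusted p = 0.00114). Lss, which closes the sterol ring, had 1.75, 1.74 and 1.86, and Hsd17b7, a later sterol reductase, 1.55, 1.57 and 1.69. On all 3 genes replicate 3 was slightly the highest. Idi1 (1.31), Fdft1 (1.01), Sqle (1.19), Msmo1 (1.06) and Dhcr7 (1.02) were each at least 2-fold higher, Pmvk (0.86), Fdps (0.85), Sc5d (0.67) and Cyp51 (0.65) at least 1.5-fold. Nsdhl (0.45), Mvd (0.38), Ebp (0.16) and Tm7sf2 (0.16) rose less. The value of Nsdhl averages features with means of 0.11 and 0.80. Mvk had 0.31, 0.41 and -0.13, with replicate 3 on the other side of 0, and did not pass (adjusted p = 0.233). Ebp did not pass without replicate 1 or 2, and Tm7sf2 did not pass without replicate 1, 2 or 3 (adjusted p 0.0546 to 0.0943).

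Of 12 genes of sterol control 7 rose and 3 fell. Insig1, which holds SREBP in the endoplasmic reticulum and is itself an SREBP target, had 1.65, 1.61 and 1.60, and the factor Srebf2 had 0.85, 0.87 and 1.06. The sterol carriers Npc1 (0.62) and Npc2 (0.86) rose. Srebf1 (-0.27), the sterol-sensing receptor Nr1h3 (-0.34) and Mylip (-0.19), which removes the LDL receptor, fell. Of the exporters, Abca1 rose by 0.29 and Abcg1 had -0.05, -0.33 and 0.05 and did not pass. Fatty acid synthesis had 9 rising and 1 falling of 15 genes, Elovl5 (-0.15) being the one that fell, with acetyl-CoA synthetase Acss2 at 0.91, malic enzyme Me1 at 0.90, fatty acid synthase Fasn at 0.85 and the desaturase Scd2 at 0.82. Abca1 and Elovl5 did not pass without replicate 1 or 2, and Mylip did not pass without replicate 2 (adjusted p 0.0682 to 0.143).

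**Figure D3:**
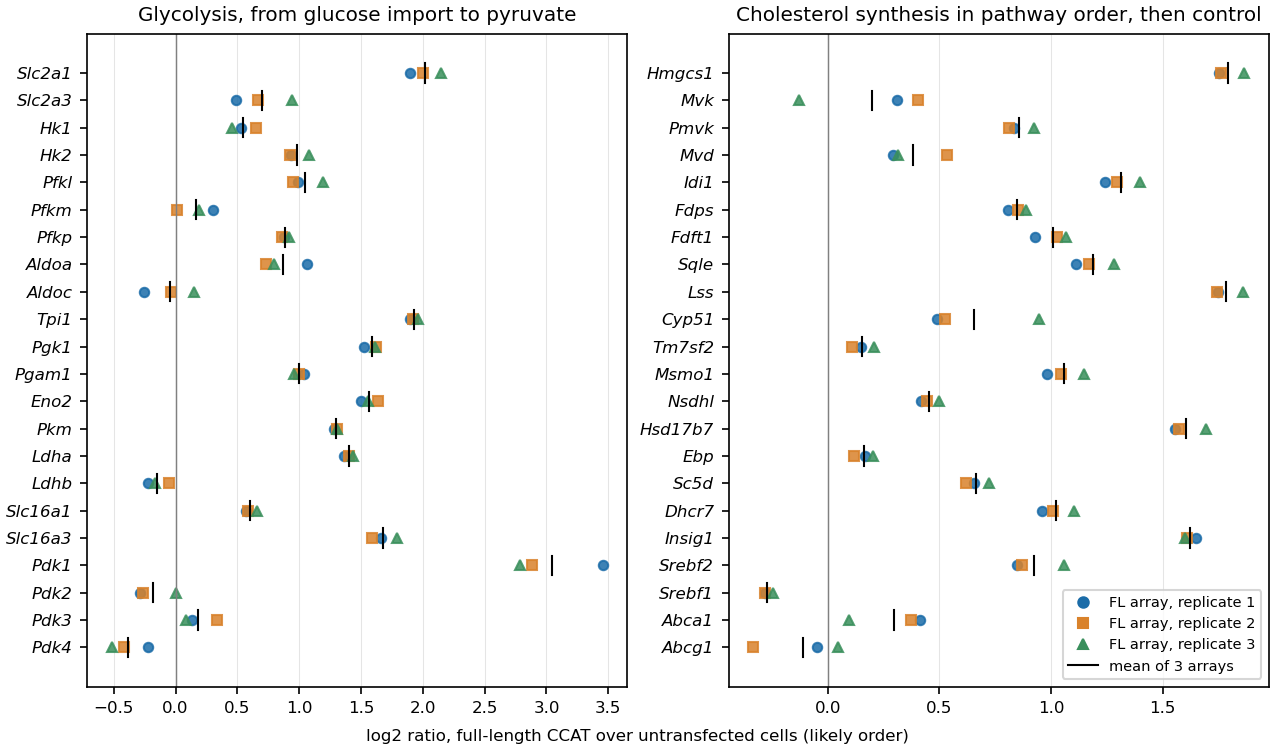
Log2 ratio of FL over untransfected cells on each of the 3 arrays for genes of glycolysis (left) and of cholesterol synthesis and its control (right), in pathway order from the top, with means as black lines. Hmgcs1, Lss, Hsd17b7 and Insig1 lie above 1.5 on every array, whereas Ldhb, Pdk2 and Pdk4 and the sterol genes Srebf1 and Abcg1 lie near or below 0.

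The start of Hmgcs1 is printed for its CCAAT boxes (capitals, CCAAT on either strand), which the factor NF-Y is known to bind beside SREBP, in the window of 250 bases before the RefSeq start (GRCm38.p6, chr13:119690101-119690350 on the plus strand). The motif was in the window of 87.0% of 23 measured cholesterol and sterol control genes and of 39.6% of 13228 measured genes. 
Hmgcs1: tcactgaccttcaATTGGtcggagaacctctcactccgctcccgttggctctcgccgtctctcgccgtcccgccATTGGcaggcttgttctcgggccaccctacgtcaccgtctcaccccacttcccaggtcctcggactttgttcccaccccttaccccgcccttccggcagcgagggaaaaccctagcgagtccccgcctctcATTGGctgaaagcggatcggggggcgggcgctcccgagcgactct

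Chaperones of the endoplasmic reticulum rose in 14 of 18, and 0 fell. The oxidase Ero1a, also a HIF target, had 1.43, 1.44 and 1.46, and the main chaperone Hspa5 (BiP) had 1.37, 1.32 and 1.43. Canx, a lectin chaperone, rose by 1.07 and Dnajc3 by 1.04. Sensors and degradation factors of the unfolded protein response numbered 11 rising and 0 falling of 15, with smaller sizes (Atf6 0.80, Derl1 0.55, the kinase PERK, Eif2ak3, 0.43), and 9, 7 and 10 rose without replicate 1, 2 or 3. Targets of the stress factor ATF4 split evenly, 12 rising and 11 falling of 29 (8, 7 and 10 rising and 7, 6 and 10 falling without replicate 1, 2 or 3). The phosphatase subunit Ppp1r15a had 1.46, 1.41 and 1.42 and the mTOR inhibitor Ddit4 1.21, 1.28 and 1.25, while Chac1 fell (-0.71, -0.72 and -0.62). Asns, another ATF4 target, lay on the ratio that many ribosomal features shared. Transfer RNA synthetases rose in 14 of 19, led by Eprs (0.92), and fell in 2, Farsa (-0.63) and Qars (-0.20). Of 22 heat shock genes 14 rose and 3 fell, Dnaja1 (-0.19), Ahsa1 (-0.17) and Hspa1a (-0.12), but the largest, the co-chaperone Bag3, was 0.92. Ahsa1, Asns and Dnaja1 did not pass without replicate 1 or 2, Hspa1a did not pass without replicate 1, 2 or 3, and Qars did not pass without replicate 2 (adjusted p 0.0558 to 0.159).

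Among 27 lysosomal and autophagy genes 18 rose and 3 fell, Neu1 (-0.29), Ctsc (-0.23) and Ctsf (-0.19), with the cargo receptor Sqstm1 at 0.98, 0.84 and 1.03 and prosaposin, Psap, at 0.84, 0.84 and 0.68. Genes of oxidative defence rose in 13 of 21 and fell in 4, Mt3 (-0.49), Mt1 (-0.36), Gpx4 (-0.20) and Prdx1 (-0.18). Pgd, an NADPH-making enzyme of the pentose phosphate path, had 1.02, 1.13 and 0.98, and the glutathione-making Gclc rose by 0.85 and haem oxygenase Hmox1 by 0.74. The median over all these groups lay above the -0.002 of all named genes (0.40 for lysosomal and 0.37 for oxidative defence genes). Ctsf, Neu1 and Prdx1 did not pass without replicate 1 or 2, and Gpx4 did not pass without replicate 2 (adjusted p 0.0537 to 0.131).

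Of 39 immediate early genes, which answer growth signals and stress within minutes, 25 rose and 6 fell. Ier3 had 1.77, 1.74 and 1.80, the factor Klf2 1.76, 1.62 and 1.67 and Jun 1.28, 1.26 and 1.20. Egr1 rose by 0.86, and the synaptic scaffold Homer1 fell (-0.73). Feedback inhibitors of ERK signalling went both ways, with the phosphatases Dusp10 (0.99) and Dusp1 (0.80) rising and Dusp6 (-0.61) falling. Without replicate 1, 2 or 3, 4, 4 and 6 of 17 rose, against 8 with all arrays, and 2, 2 and 3 fell, against 5. Of 24 p53 targets 12 rose and 2 fell, Ddb2 (-0.29) and Tigar (-0.20). Cdkn1a, the p21 inhibitor of cyclin-dependent kinases, had 1.0, 1.03 and 1.04, and Gadd45a, a DNA damage gene, 0.96, 0.97 and 0.98. In the BCL2 family 4 rose and 4 fell of 14 (2, 3 and 3 falling without replicate 1, 2 or 3), near the 29.8% and 29.5% of all genes, with the pro-death members Bak1 at 0.69 and Bad at -0.89. Ddb2 did not pass without replicate 2, Tigar did not pass without replicate 2 or 3, and Dusp1 did not pass without replicate 3 (adjusted p 0.0558 to 0.103).

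Cell cycle genes went both ways. Genes of DNA replication and the G1/S step fell in 16 of 33 and rose in 11, with thymidine kinase Tk1 at -0.76, -0.81 and -0.75 and the sliding clamp Pcna at -0.42, -0.45 and -0.45. For G2 and mitosis 17 of 29 genes rose and 5 fell, among them the proliferation marker Mki67 (0.81, 0.82 and 0.91), the kinetochore motor Cenpe (0.75) and topoisomerase Top2a (0.62), while the kinase Cdk1 fell (-0.54, -0.52 and -0.57). The medians were 0.21 for mitosis and -0.05 for replication, both small beside the spread of single genes, and 12, 10 and 14 mitotic and 6, 5 and 8 replication genes rose and 4, 3 and 6 mitotic genes fell without replicate 1, 2 or 3.

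Among 15 connexins and pannexins, the subunits of gap junctions and related channels, 3 rose and 6 fell. Gjb5 stood alone with log2 ratios of 3.28, 3.74 and 2.52, a 9.07-fold increase (SD 0.62, adjusted p = 0.00263). The next, Gjc1, had 0.67, 0.77 and 0.73, and Gja1 had 0.05, 0.61 and 0.90, which did not pass. Gja3 (-0.67), Gja6 (-0.48) and Gja4 (-0.46) fell. The start of Gjb5 (GRCm38.p6, chr4:127358165-127358414 on the minus strand) is shown because Gjb5 is the member with the largest ratio outside the groups above. The 250 bases held 1 CCAAT box (capitals) and no match to the interferon or hypoxia motif, which says only that those letters are not in this window. Gja6 did not pass without replicate 1 (adjusted p 0.0583).
Gjb5: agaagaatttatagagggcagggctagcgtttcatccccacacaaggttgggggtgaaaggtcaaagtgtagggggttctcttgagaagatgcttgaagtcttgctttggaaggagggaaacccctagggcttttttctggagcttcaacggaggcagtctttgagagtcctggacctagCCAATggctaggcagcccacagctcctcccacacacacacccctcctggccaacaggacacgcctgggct

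A list of 8 genes recalled from published work on CCAT was chosen partly on these samples, so its directions are not independent evidence. 4 of its members rose and 3 fell. Beside Gjb5, Fmn1 rose with a mean of 3.01 (SD 0.54, adjusted p = 0.00239), Ntn4, a netrin that guides axons, had 0.75, 1.05 and 1.05, and Rgs5, a brake on G-protein signalling, had 0.41, 0.75 and 0.26. Kcnn3, a calcium-activated potassium channel, fell with -1.01, -0.91 and -1.02, the cation channel Trpv4 with -0.73, -1.13 and -0.93 and Grin2d with a mean of -1.42. The sodium-calcium exchanger Slc8a1 had 0.07, 0.12 and -0.05 and did not pass (adjusted p = 0.414). Rgs5 did not pass without replicate 1 (adjusted p 0.0915). Its features also disagreed, with means of 0.017 and 0.92, so its rise rests on the higher one.

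Channel and receptor counts are given beside the 29.8% of all genes that rose and the 29.5% that fell, and most of their ratios were small. Voltage-gated calcium channel genes fell in 9 of 24 and rose in 4. Cacna1c, which encodes CaV1.2 itself, had 0.14, 0.21 and 0.08 (adjusted p = 0.0372), and the position of its probe relative to the transfected part is not given in the sources used here, so this ratio checks nothing about the construct. Cacnb2, an auxiliary subunit, fell (-0.61, -0.82 and -0.54) and so did the T-type channel Cacna1g (-0.53, -0.55 and -0.76), whereas Cacna1a had -0.55, -1.36 and -0.25 and did not pass. Cacna2d2, an auxiliary subunit, rose by 0.40. Potassium channels fell in 18 of 44 and rose in 4 (Kcns3 -0.84, Kcnk4 -0.65), and sodium, HCN and TRP channels fell in 10 and rose in 4 of 28 (Scn8a -0.60, the pacemaker channel Hcn4 -0.64). Among those that rose were Kcnn2 (0.37), Kcnmb2 (0.36), Kcnj12 (0.34) and Kcna5 (0.26), and Trpc6 (0.43), Trpm7 (0.30), Scn9a (0.29) and Scn10a (0.27). Without replicate 1, 2 or 3, 11, 10 and 16 potassium channels and 7, 6 and 9 sodium, HCN and TRP channels fell, and 2, 1 and 4 calcium channel genes and 2, 2 and 4 sodium, HCN and TRP channels rose. Transmitter receptors fell in 17 of 49 and rose in 5, Gabre (1.11), Chrna6 (0.29), Grm3 (0.20), Grik5 (0.15) and Chrna1 (0.12), with 10, 14 and 16 falling and 2, 1 and 7 rising without replicate 1, 2 or 3. The GABA receptor subunit Gabre rose (0.77, 1.08 and 1.47), against Gabra5 at -0.55 and the glycine receptor Glra1 at -0.68. Of 41 genes of calcium transport and calmodulin signalling 10 rose, the release channel Ryr2 with 0.83, 0.94 and 1.12, and 11 fell (6, 5 and 12 without replicate 1, 2 or 3), neither far from the shares of all genes. Scn9a did not pass without replicate 1, Cacna1c, Grik5, Grm3 and Trpc6 did not pass without replicate 1 or 2, Chrna1 did not pass without replicate 1, 2 or 3, Cacna2d2 and Chrna6 did not pass without replicate 2, and Scn10a did not pass without replicate 2 or 3 (adjusted p 0.0508 to 0.171).

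Neuronal and developmental lists held genes that rose and genes that fell, as did all genes (29.8% and 29.5%). Axon guidance genes rose in 13 and fell in 20 of 58, with the semaphorin receptor Nrp1 at 1.02, 1.01 and 0.85 and the netrin receptor Unc5b at 0.81, against Ephb6 at -0.71. These counts were 5, 6 and 11 rising and 14, 10 and 17 falling without replicate 1, 2 or 3, and those of falling genes in the lists that follow were 5, 4 and 7 neurotrophic, 7, 6 and 10 neuropeptide and 13, 9 and 17 TGF-beta family genes. In the neurotrophic list 7 of 16 fell, among them Gfra2 (-0.49), a GDNF family receptor, and 1 rose, the shared cytokine receptor Il6st (0.92, 1.03 and 0.94). The features of Il6st disagreed, with means of 0.165 and 1.76, so its values are averages of unlike features. Neuropeptide genes fell in 10 of 22 and rose in 3, Scg2 (0.44), Calcb (0.19) and Chga (0.10), with the opioid precursor Pdyn at -1.83, -1.01 and -0.73 and Avp at -0.82. Synaptic genes rose and fell in 13 each of 34, with the vesicle protein Syt4 at 1.01, 1.03 and 0.98 and Rab3a at -0.69, -0.75 and -0.96. TGF-beta family genes fell in 17 of 40 and rose in 7: the latent-form binding protein Ltbp1 had -1.69, -1.07 and -1.25, Amh -1.06, -1.06 and -1.29 and the oocyte factor Gdf9 1.19, 1.22 and 0.99. In the Wnt, Notch and Hedgehog list the Wnt inhibitor Dkk1 (-1.13, -1.13 and -1.11) and the Notch target Hes1 (-0.81) fell and the Hedgehog co-receptor Cdon rose (1.36, 1.37 and 0.32), and 13 rose and 13 fell of 46, near the shares of all genes, with 4, 5 and 9 rising without replicate 1, 2 or 3. Calcb and Cdon did not pass without replicate 1 or 2, Chga did not pass without replicate 1, 2 or 3, Pdyn did not pass without replicate 2, and Ephb6 did not pass without replicate 2 or 3 (adjusted p 0.0602 to 0.2).

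The 20 sympathoadrenal markers of the labelled lineage all had mean ratios under 1.5-fold in size. Of them 5 rose and 7 fell, where 29.8% and 29.5% of all genes did, and the counts below stand beside the same shares. Th, the enzyme that starts catecholamine synthesis, had -0.54, -0.37 and -0.49. Of the 34 neuronal genes counted above as synaptic, 5 rose and 3 fell by at least 1.5-fold. Markers of other cell types mostly did not pass or fell: 0 of 11 glial, 0 of 13 immune, 0 of 10 endothelial and 2 of 14 fibroblast markers rose, while 5, 5, 6 and 6 fell. Without replicate 1, 2 or 3, 3, 3 and 3 sympathoadrenal genes rose and 6, 4 and 6 fell, and 3, 2 and 4 glial, 4, 3 and 5 immune and 3, 1 and 6 endothelial markers fell. The pan-leukocyte marker Ptprc had a deposited ratio of exactly 0 on all 3 arrays. The fibroblast markers that rose were Fn1 (0.80, 0.77 and 0.69) and Pdgfrb (0.70, 0.63 and 0.65), and Fap fell (-0.92).

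Of 66 cytosolic ribosomal protein genes 36 fell and 10 rose with a median of -0.14, but 26 of them lay on 1 log2 ratio shared by 76, 78 and 74 features of the 3 arrays, at -0.21, -0.19 and -0.17, where 33.1 to 34.2 features were expected from neighbouring values. The 40 genes off that ratio had a median of -0.06, with 15 falling and 10 rising, and without replicate 1, 2 or 3 the genes of all 66 that fell numbered 10, 9 and 36 and those that rose 4, 3 and 7. Mitochondrial ribosomal genes rose in 25 and fell in 19 of 73, where 29.8% of all genes rose and 29.5% fell. The same shares stand beside the other counts of this paragraph. Oxidative phosphorylation genes rose in 35 and fell in 21 of 82, only 2 of them rising by 1.5-fold (Cox7a1 0.79, Ndufv3 0.79), and 22, 12 and 32 rose and 13, 13 and 20 fell without replicate 1, 2 or 3. Leaving out the same arrays gave 17, 14 and 20 rising and 10, 9 and 16 falling mitochondrial ribosomal genes, 14, 13 and 17 rising and 4, 4 and 8 falling proteasome genes and 8, 6 and 10 falling histone genes. Proteasome genes rose in 20 and fell in 10 of 38, led by the immunoproteasome subunits given above. Of 23 ribosome assembly genes 14 rose and 4 fell (1, 2 and 4 without replicate 1, 2 or 3), with nucleolin, Ncl, at 0.89, 0.89 and 0.92. Among 34 histone genes 14 rose, 8 of them at least 1.5-fold and 4 at least 2-fold, and 10 fell. H2bc12 had 1.23, 1.26 and 1.08 and H3c1 0.92, 1.18 and 1.39, and histone copies are too alike in sequence for their values to be taken as separate.

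Large receptor and keratin families were counted beside these lists. Of 725 olfactory receptor genes 212 fell and 97 rose, where 29.5% and 29.8% of all genes did, so that the share that fell was near that of all genes. Of 124 vomeronasal and taste receptors 44 fell and 11 rose, and of 38 keratins 20 fell and 2 rose, Krt86 (0.30) and Krt26 (0.25). At least 1.5-fold, only 13 and 5 olfactory receptors differed. Krt79 had -1.0, -1.28 and -1.25, and Olfr904 had 1.09, 1.38 and 1.36. Hox genes fell in 11 and rose in 9 of 35, near the shares of all genes. Without replicate 1, 2 or 3 the counts were 117, 107 and 195 falling and 45, 36 and 82 rising olfactory receptors, 20, 19 and 36 and 6, 5 and 7 vomeronasal and taste receptors, and 9, 7 and 9 and 5, 5 and 6 Hox genes. Krt86 did not pass without replicate 1 or 2 (adjusted p 0.0729 to 0.0979).

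Genes outside every list, chosen after their values were seen, also reached 2-fold. Oas1f, an oligoadenylate synthetase relative, had 2.15, 2.13 and 1.92, Ropn1l 1.97, 2.02 and 2.14 and the cell cycle inhibitor locus Cdkn2a 1.85, 1.86 and 1.81, each close on the 3 arrays. Rtp4 and Lgals3bp, known as interferon-inducible, rose by 1.79 and 1.77. On the low side Serping1, the C1 inhibitor of complement, had -1.23, -1.12 and -0.92 and Myo1g, a myosin of blood cells, -1.17, -1.19 and -0.64.

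**Figure D4:**
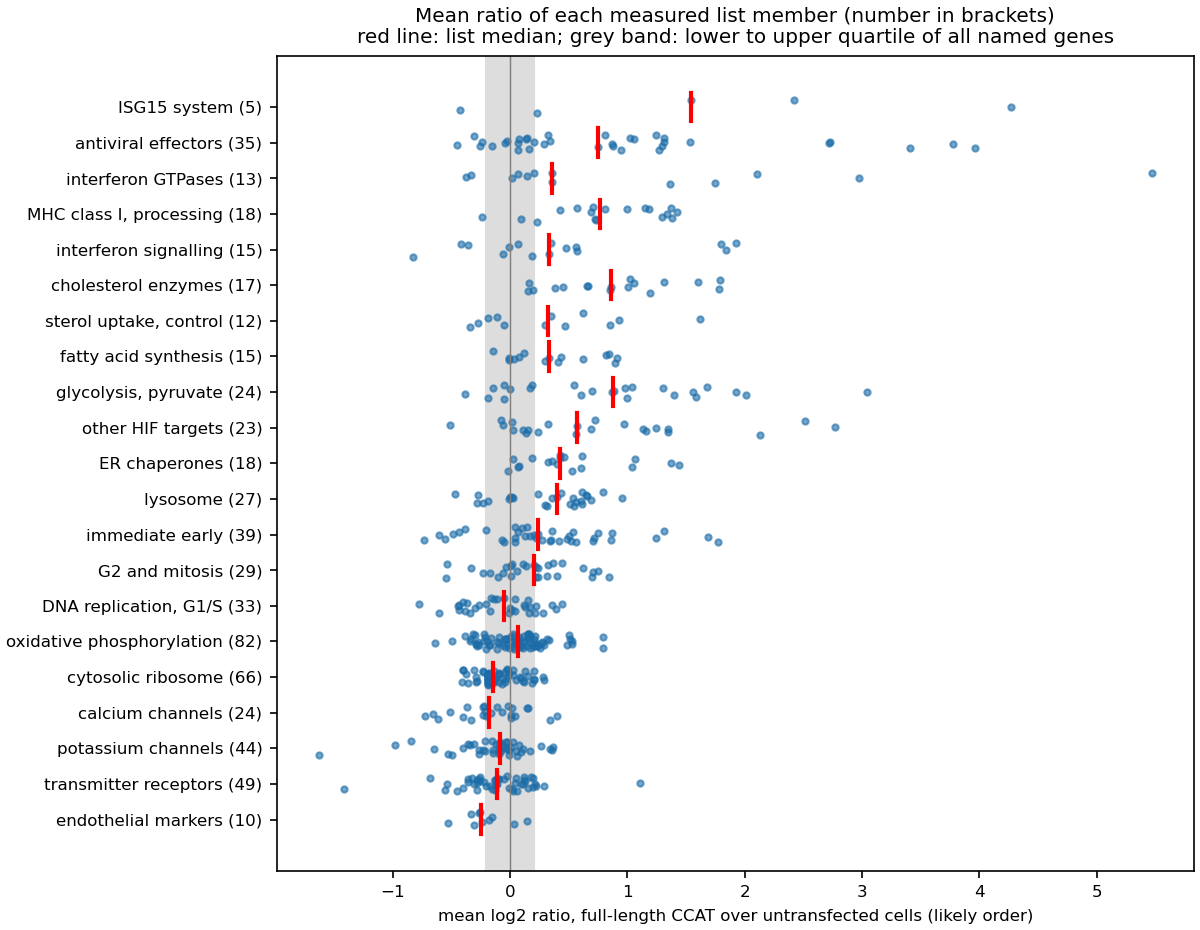
Mean log2 ratio of FL over untransfected cells for each measured member of 21 gene lists (points), with the list median in red and the range from the lower to the upper quartile of all named genes as a grey band. Medians of the ISG15, antiviral effector, interferon GTPase, interferon signalling, MHC class I, cholesterol and glycolysis lists lie right of the band. So do those of the sterol control, fatty acid, other HIF target, ER chaperone and lysosome lists. Medians of immediate early genes (0.235) and endothelial markers (-0.246) lie near the right and left edges of the band, past the quartiles of each single array. Channel, receptor, ribosomal and replication medians lie within the band.

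Some ratios rested on 1 or 2 arrays. Among genes with a mean of at least 1 in size, Arhgap6 had -0.77, 0.0 and -2.41, Pik3c2a 2.01, 1.49 and 0.0 and Lrrtm4 1.51, 0.0 and 1.91, each with a deposited ratio of exactly 0 on 1 array. Hspa12a had 0.50, 0.47 and 2.24 and Rftn1 1.78, 1.21 and 0.05. None of these 5 passed (adjusted p = 0.151, 0.0876, 0.0854, 0.0993 and 0.0829 in the order named). In all, 7 genes with a mean of at least 2-fold did not pass. Features of 1 gene could also differ, by at least 1 on the log2 scale for 58 of 1199 genes with several features, but only 10 of the 262 genes changed at least 2-fold had more than 1.

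The truncated construct was measured against the same kind of control on the same platform, so FL and DTA values are set side by side and only their difference was tested. One DTA array, replicate 3, is described in its treatment text as full-length and in its title and source as truncated. Of all genes 34.2% passed the test of FL minus DTA, 18.1% above and 16.1% below. Of the 191 genes at least 2-fold higher in FL than in untransfected cells, 119 had a DTA mean past 1 in the same direction, and by the test FL was above DTA for 85 and below it for 28. Of the 71 at least 2-fold lower, 39 had a DTA mean past -1, and FL was above DTA for 3 and below for 10. Both sets were picked by the FL values that also enter this difference. That choice tilts the splits toward FL being the more extreme, so they are descriptions only.

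Gjb5 had 3.28, 3.74 and 2.52 with FL and 0.29, 0.37 and 0.28 with DTA, so the groups did not overlap, and the difference was 2.87 (SE 0.30, adjusted p = 0.00176). Grin2d had -1.32, -1.45 and -1.49 with FL and -0.46, -0.42 and -0.51 with DTA, a difference of -0.96 (adjusted p = 0.000556). Kcnn3 and Trpv4 had means of -0.98 and -0.93 with FL and -0.91 and -0.87 with DTA, and neither difference passed (adjusted p 0.223 and 0.693). Fmn1 had a mean of 3.01 with FL and 4.08 with DTA, and its difference of -1.08 passed (adjusted p = 0.0284). A p that misses the threshold does not show that the constructs act alike. Cxcl10 had means of 5.38 with FL and 5.54 with DTA, Isg15 4.27 and 3.63, and Ifit1 3.78 and 2.58 in the same order. The differences of Isg15 (0.64, adjusted p = 0.00123) and Ifit1 (1.19, adjusted p = 0.00835) passed and that of Cxcl10 (-0.16, adjusted p = 0.196) did not.

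The group counts that follow stand beside the 18.1% of all genes with FL above DTA and the 16.1% with FL below. By group, FL was above DTA for 13 of 17 cholesterol enzymes and below for 0, with list medians of 0.86 for FL and 0.38 for DTA. Hmgcs1 had 1.75, 1.76 and 1.87 with FL and 1.05, 1.13 and 1.11 with DTA (difference 0.69, adjusted p = 0.000638). FL was above DTA for 13 and below for 2 of 24 glycolysis genes, with medians of 0.87 and 0.61, and Bnip3 had 2.64, 2.81 and 2.86 with FL against 1.59, 1.72 and 1.66 with DTA. Of 18 antigen processing genes 4 were above and 1 below, with medians of 0.77 for FL and 0.79 for DTA. FL was below DTA for 38 of 66 cytosolic ribosomal genes and above for 13, with 26 of the 66 on the shared ratio. Among the 40 off that ratio FL was above DTA for 13 and below for 12, so the excess below came from the genes on it. These contrasts also hold any difference in construct level or in transfection, which was not measured here.

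Against cells with the empty plasmid, on another platform whose values were not tested against these, the same genes gave other ratios. Of the 191 genes at least 2-fold higher against untransfected cells 190 were measured there, with a median of 0.14 against 1.25 here, and 184 differed by less than 1.5-fold. The 69 lower genes measured there had a median of -0.27, against -1.19 here over the 71, and 53 differed by less than 1.5-fold. Of these 190 genes 3 had a mean past 2-fold in the same direction there (Gjb5, Mpv17 and Cdon), and of the 71 lower genes 5 of the 69 measured did (Amh, Artn, Myo1g, Serping1 and Styk1). Gjb5 had 3.28, 3.74 and 2.52 over untransfected cells and 3.87, 3.94 and 3.72 over empty plasmid. Cxcl10 had 5.32, 5.54 and 5.29 and 0.21, 0.23 and 0.24, Fmn1 2.39, 3.32 and 3.32 and 0.05, 0.14 and 0.11, Pdk1 3.45, 2.88 and 2.79 and 0.10, 0.19 and 0.18, and Hmgcs1 1.75, 1.76 and 1.87 and 0.23, 0.19 and 0.19 in the same order. Kcnn3 had means of -0.98 and -0.88, Grin2d of -1.42 and -1.0, Artn of -1.53 and -1.20, and Trpv4 of -0.93 and -0.82, all negative in both, and Necab1 had -2.13 and -0.31. Gjb5 and the members Kcnn3, Trpv4 and Grin2d belong to the recalled list, so they are not independent evidence.

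**Figure D5:**
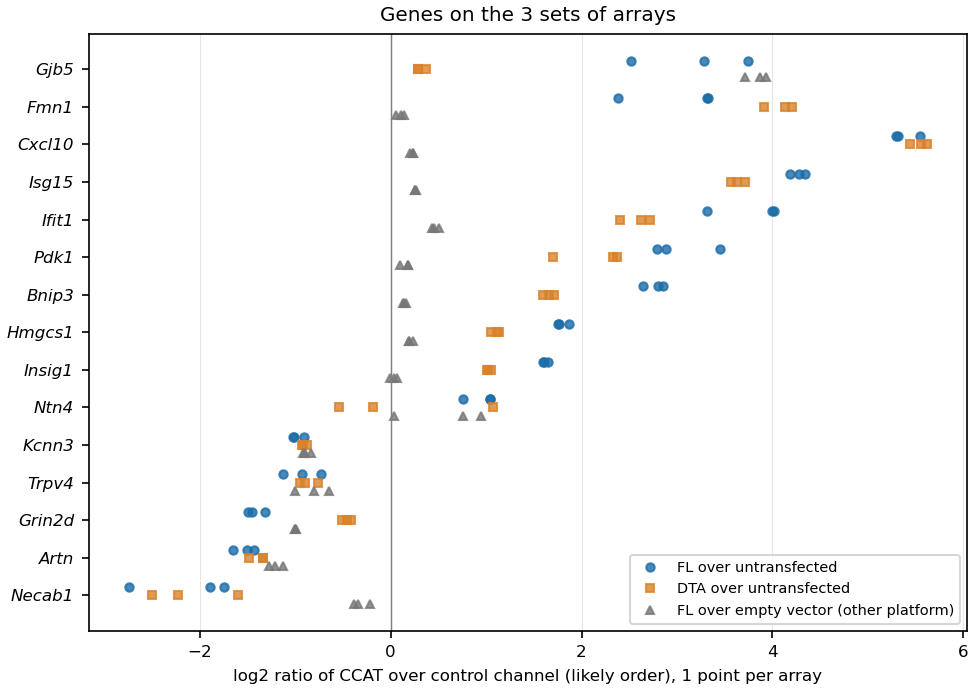
Log2 ratios on single arrays for 15 genes: FL over untransfected cells (circles), DTA over untransfected cells (squares) and FL over empty plasmid (triangles, other platform), 3 arrays each. Gjb5 is high in both FL sets and near 0.3 with DTA, while Cxcl10, Isg15, Fmn1, Pdk1 and Hmgcs1 are high against untransfected cells and under 0.3 against empty plasmid.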

How the data were processed

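Total RNA was measured on two-colour Agilent arrays with FL in Cy3 and untransfected cells in Cy5, per the labels. The authors deposited 1 log10 ratio per feature and array, from the Rosetta Luminator software named in the design text. The lowest deposited value of exactly -2 gave the base of the log. No source used here gives the background correction, the dye normalization or which channel is on top. The number of arrays limits the precision.

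Ratios were converted to log2. Of 22393 features 18218 had 1 symbol in the platform annotation, 16 several and 4159 none, and 16 symbols were updated through RefSeq (GRCm38.p6). Features of a gene were averaged, and 344 to 384 features per array were at exactly 0. The mean ratio of a gene was tested against 0 by lmFit and eBayes of limma 3.58.1 (R 4.3.3), with Benjamini-Hochberg adjustment over 16496 genes and a threshold of 0.05, on the 3 FL arrays alone, with 2 residual degrees of freedom, and FL minus DTA on 6 arrays with 4. The steps were tested on simulated data. Members and the 56 gene lists were chosen with earlier results of these data known, so list counts are descriptions, without a list test. Genes named were the 15 highest and 15 lowest, up to 6 called members per list with the largest mean, all members of 10 lists (antiviral, ISG15, GTPase, interferon and receptor, signalling, cholesterol, sterol, recalled CCAT, connexin and calcium channel) and of the marker lists, Cacna1c, and genes of large spread, of large FL minus DTA or with disagreeing features. Clone and gene model symbols were left out of the 15. Other members behind small counts were named after their values were seen. Alternatives were centring, quantile normalization, feature handling, a filter on small ratios, robust eBayes, treat, the fit shared with DTA, leaving out each array and, added with the data known, leaving out 42 genes on a shared ratio. Deviations of same-numbered FL and DTA arrays correlated at -0.04, 0.09 and -0.002. The arrays were not paired in the main fit, but with 3 arrays per group such values cannot exclude a pairing by number. Figures used matplotlib 3.10.9.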

Additional observations from a re-analysis of the deposited data

Results flagged for a closer look

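For 10 of the genes at least 2-fold changed against untransfected cells, FL and DTA differed most by the limma test of their difference, on log2 ratios, and these are given as values. Higher with FL were Gjb5 by 2.87 (adjusted p = 0.00176), the collagen gene Col11a2 by 1.84 (1.55, 2.02 and 1.92 with FL and 0.01, -0.004 and -0.04 with DTA), the mitochondrial membrane protein Mpv17 by 1.84 (1.57, 2.41 and 1.87 with FL and 0.12, 0.09 and 0.12 with DTA), Ctnnal1 by 1.53, the phosphatase Ppef2 by 1.46 and the histone H1f6 by 1.28. In each of these the FL arrays lay above the DTA arrays. The genes were picked by the size and adjusted p of this difference, so the separation adds nothing to it. Lower with FL than with DTA were Egln3, with a difference of -2.05 (1.31, 1.39 and 0.69 with FL and 2.25, 3.69 and 3.60 with DTA), the antimicrobial peptide Camp with -1.65 (1.38, 0.84 and 1.85 with FL and 2.60, 3.26 and 3.14 with DTA), Ces1f with -1.60 and Lmln with -1.37. The adjusted p of the 10 differences ranged from 0.000327 (Lmln) to 0.0186 (H1f6). Of these 10 genes Egln3, Camp, Lmln, Gjb5 and Mpv17 were positive on all arrays of both constructs.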

How the results depend on the processing

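Only 3 arrays bear on each value, and the labels do not say whether the untransfected RNA was 1 pool or separate for each array. None of the 402 named genes that passed changed direction under the alternatives that gave them a value, whereas some of those that did not pass did. Of 402 named genes that passed, 402 did with centring, 402 with quantile normalization, 402 without the genes on the shared ratio, 401 with the median over features and 400 in the fit shared with DTA, but 94 with treat at 1.5-fold. Under treat the genes that passed numbered 250, with 207 higher and 43 lower, and 20 were at least 2-fold lower. Leaving out 1 FL array gave 5879 to 9031 genes, 3069 to 4560 higher and 2810 to 4471 lower, against 9794, 4921 and 4873. Without replicate 2 they were 5879, 3069 and 2810, and without replicate 1 3148 were lower. Without replicate 1, 2 or 3, 354, 345 and 383 of the 402 named genes passed. Of the GTPase genes 5 to 8 rose and 0 to 1 fell, of the antigen processing genes 0 to 1 fell, and of the glycolysis genes 0 to 2 fell when an array was left out, and in the shared fit 2 GTPase and 3 glycolysis genes fell. For FL minus DTA, 5643 genes passed, 2994 above and 2649 below, and leaving out 1 of the 6 arrays gave 3413 to 5831, 1848 to 3063 above and 1565 to 2768 below, with 10 to 26 genes at least 2-fold above against 16. Without DTA replicate 1, 2 or 3 the number was 3730, 3592 and 3413. With the replicate number as a block 4012 genes passed in FL minus DTA. The cause of these shifts was not tested, beyond treat asking for a larger difference and smaller sets holding fewer arrays.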

Other observations

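Features without a gene symbol held the lowest ratios of the FL arrays. Of 4159 such features 450 had a mean log2 ratio of -3 or lower on the FL arrays, against 0 features with a symbol, whose lowest mean was -2.13. Their median was -3.42, -5.04 and -5.27 on FL replicates 1, 2 and 3, and -1.0, -1.77 and -1.67 on DTA replicates 1, 2 and 3. Of all 4159 features without a symbol, 24, 104 and 158 reached the deposited floor on the FL arrays and 0 on each DTA array. In the order of the deposited rows, 221 of the 450 followed the one before at a distance of 7 rows. What these features are is not given in the sources used here, and they entered no gene test. At the other end 38 features without a symbol had a mean of at least 1, the highest 3.46.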
